A study of Mus musculus with 28 samples.

Results

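Ribosome run-off in the adult mouse retina was followed in 3507 genes, those with at least 50 reads in the library made without run-off, out of 23995 genes listed in each file and 9159 with any read in that library. The genes were chosen by that count alone, and their reads were compared with those in the library made after run-off. Both libraries carry the labels retina, adult stage and C57BL/6 strain and hold RNA bound to ribosomes, and each group is 1 library. The mice came from a cross of the RiboTag knock-in line, in which Cre switches the ribosomal protein gene Rpl22 to a copy tagged with haemagglutinin (HA), with the Pax6-alpha-Cre line, in which Cre is transiently active in progenitors of the peripheral retina. Tagged ribosomes are therefore carried by several retinal neuron types and not by retinal ganglion cells alone, and the Cre genotype of the retinal samples is not in the labels, while the study's text describes its retinas as dissected and Cre-positive. According to the study's methods, several eyes were homogenised together, the HA-tagged ribosomes were precipitated, and the attached RNA was copied and amplified by PCR from its poly(A) end.

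Ribosomes that are elongating a protein chain move along the mRNA, reach the stop codon and leave it. In a run-off assay new initiation is blocked while elongation goes on, so that mRNAs with moving ribosomes lose them and drop out of the precipitate. An mRNA whose ribosomes are stalled, as the repressor FMRP is known to cause in neurons, can keep them, and RNA that reaches the beads without a ribosome is not removed either. Here the retinal lysate was incubated with rabbit reticulocyte lysate, which supplies translation factors, with harringtonine, which traps ribosomes at the start codon, and with 4E1RCat, which blocks assembly of the cap-binding complex. Elongation was then stopped with cycloheximide before precipitation. The assay addresses how much of the ribosome-bound mRNA was being actively translated.

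The library without run-off held 4686284 reads assigned to genes and the library after run-off held 315009, which is 6.72% as many. The study's methods state that the amounts of library put into the sequencing pool followed the measured amounts of cDNA, so the raw totals carry that difference and are not the result of equal loading. For that reason 2 scales are given for each gene. The raw percentage is the reads after run-off as a percentage of the reads without it, and the share ratio is the same comparison after the reads of each library were scaled to its total (counts per fixed library size, CPM), so that a share ratio of 1 means that a gene held the same share of both libraries. A share ratio says how a gene fared against the other RNA left in the precipitate and not whether its absolute amount was kept. With 1 library in each group there is no replicate check and no test, and the 95% intervals given below (exact Clopper-Pearson) take in the error of counting and nothing else, as amplified copies of the same molecule could not be told apart.

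On the raw scale nearly every gene had fewer reads after run-off. Of the 3507 genes, 3487 (99.4%) had fewer reads and 20 had more. No read was left for 1381 genes, or 39.4% of them, which are called lost below. Of the rest, 486 had a share ratio below 0.5, 877 had one from 0.5 to 2, and 763 (21.8%) had one over 2. In all, 1249 genes (35.6%) held at least the share they had without run-off. The median share ratio was 0.36 and the upper quartile was 1.65, so losses and retained shares were both common. The scatter of the reads of every gene in both libraries shows this spread.

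**Figure D1:**
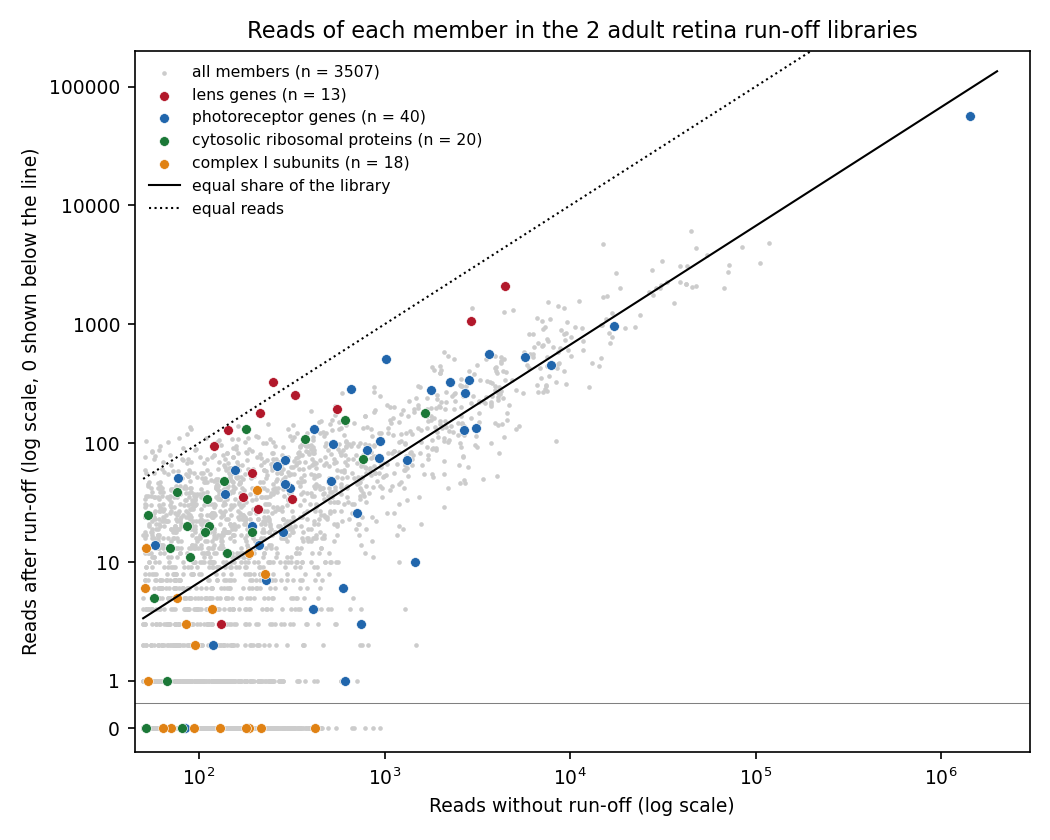
Reads of each of the 3507 genes in adult retina without run-off (horizontal axis, log scale) and after run-off (vertical axis, log scale, with genes at 0 reads below the grey line), with 4 gene classes in colour. Nearly all genes lie below the dotted line of equal reads, the 13 lens genes lie mostly above the solid line of equal share, and genes at 0 after run-off reach up to 943 reads without it.

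How often a gene was lost depended on how many reads it had to begin with. Among the 1444 genes with 50 to 99 reads without run-off, 873 were lost (60.5%). The figure was 41.1% for the 961 genes with 100 to 199 reads, 18.9% for the 565 genes with 200 to 499 reads, and 1.12% for the 537 genes with 500 or more. The median share ratio was 0, 0.20, 0.80 and 1.04 in these same bins. The best measured genes thus sat close to an equal share on the scale of library totals. Highly read genes weigh heavily on that scale, as 10 genes alone held 44.7% of the reads without run-off. Other scalings, given below, divide every ratio by 2.11 or 2.04. A gene with 50 reads needed only 3.36 reads after run-off to hold its share, and a count of 0 at that depth still allows 3 reads, or a share ratio of up to 0.893. Loss of a gene near the minimum of 50 reads is therefore only weakly bounded by the counts. The genes were also chosen for a high count in the library without run-off, which by itself favours a lower count in the other library, and 68 genes below 50 reads without run-off had 50 or more after it. Values just outside the minimum include Tmem9 (48 reads without run-off and 199 after) and Nup188 (49 and 99), and just inside it are Lpcat3 (51 and 76) and Mrpl11 (52 and 104).

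**Figure D2:**
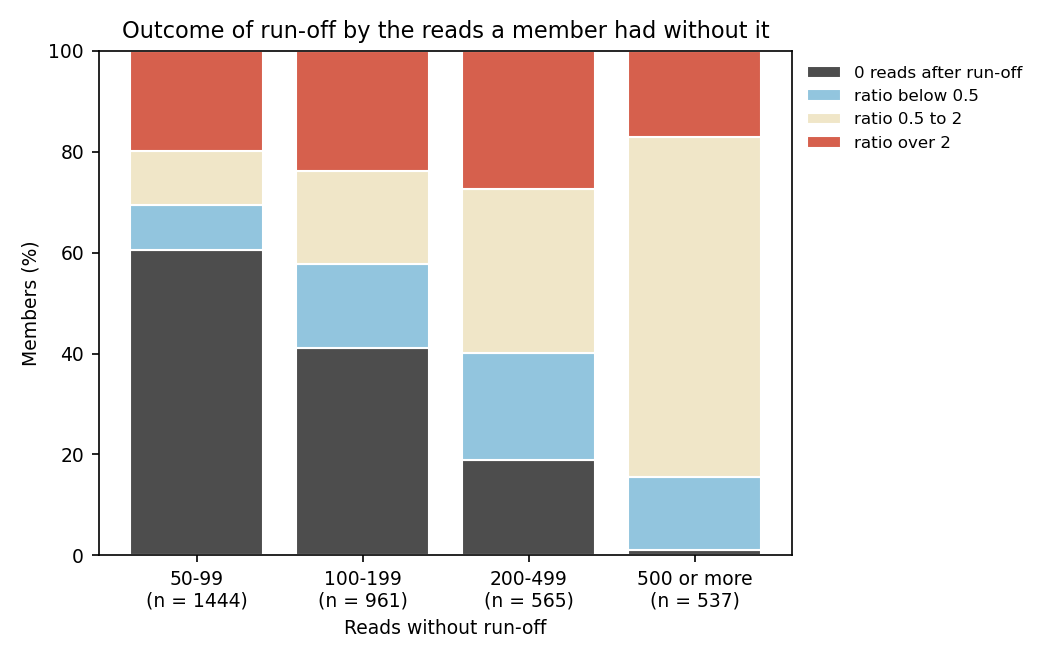
Percentage of genes at 0 reads after run-off, with a share ratio below 0.5, from 0.5 to 2, or over 2 (stacked, vertical axis), for genes with 50 to 99, 100 to 199, 200 to 499 and 500 or more reads without run-off (horizontal axis). The share of lost genes drops from 60.5% to 1.12% from the first bar to the last.

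The counts left after run-off also spread more widely than counts around an equal share would. In the bin of 50 to 99 reads, where an equal share would leave between 3.36 and 6.65 reads, 873 genes had no read, 191 had 1 to 4, 194 had 5 to 19 and 186 had 20 or more. Those that kept any read had a median of 9 reads, where an equal share of the bin's median gene is 4.64 reads. Libraries made without run-off also differ in which genes they list above 0. Of the 3063 genes above 0 FPKM (reads scaled by transcript length and library total) in replicate 2 of the adult retina libraries, 1803 (58.9%) are listed at 0 in replicate 1, while 35.03% of the same 3063 genes were lost after run-off. In the other direction, 34 of the 1294 genes above 0 in replicate 1 are at 0 in replicate 2. Over all genes replicate 1 lists 2082 above 0 and replicate 2 lists 8079, their depth is unknown, and a listed 0 can be a failed estimate, as for Gnb1 described next. The part that library complexity has in the losses after run-off was not tested.

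A few genes made up much of both libraries. Gnb1, a beta subunit of heterotrimeric G proteins (ENSMUSG00000029064, chromosome 4, 155491361 to 155559269, plus strand, mm10), had 1427132 reads without run-off, 30.5% of the library, and 56840 after it, 18.0% of the library. Its share ratio was 0.593 (interval 0.588 to 0.598). The other genes with the most reads without run-off were Fam169a, Rorb, Set, Tspyl1, Dpysl2, Impact, Gnl3l, Bhlhe41 and Myef2. Together the 10 held 44.7% of the reads without run-off and 27.8% after it, their share ratios ran from 0.443 for Impact to 1.37 for Bhlhe41, and none was lost. All 10 are also above 0 FPKM in both Cre-negative adult superior colliculus (SC) libraries, which carry no tagged ribosomes, at 2.45 to 64220 FPKM. Gnb1 is listed at 0 FPKM in both adult retina libraries, so those values say nothing on it.

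Of these 10 genes, 7 were also among the 10 with the most reads after run-off. The others in that second list were Actb, Rn45s and Otub1. Actb, which encodes cytoplasmic beta-actin (chromosome 5, 142903115 to 142906754, minus strand, mm10), had 44797 reads without run-off and 6034 after it, a share ratio of 2.004 (1.95 to 2.06). Rn45s, the precursor of the ribosomal RNAs, had 15046 and 4713 reads, a raw percentage of 31.3% and a share ratio of 4.66 (4.51 to 4.82). Its sequence includes the ribosomal RNAs, which are part of the precipitated ribosomes. Its reads therefore do not measure RNA that lacks a ribosome. Otub1, a deubiquitinating enzyme, had 31453 and 3427 reads and a share ratio of 1.62 (1.56 to 1.68).

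Among genes with no read after run-off, the 10 with the most reads beforehand had 453 to 943 reads. Foxp1, a forkhead transcription factor (ENSMUSG00000030067, chromosome 6, 98925338 to 99522721, minus strand, mm10), went from 943 reads to 0, and the limit of 3 reads that a count of 0 allows is a share ratio of 0.0473. Hnrnpc, which packages nascent transcripts, had 865 reads and Hnrnph1, a splicing regulator, had 683, and both were at 0 after run-off. Sh3bgrl (786 reads), Tsn, the RNA- and DNA-binding protein translin (664), Tnks2, a tankyrase (496), Sf3b2, a subunit of the splicing factor SF3b (462), and Cfdp1 (457) were at 0 as well. Mapt, which encodes the microtubule-binding protein tau (chromosome 11, 104231390 to 104332090, plus strand, mm10), had 546 reads and 0. Stmn3, a stathmin that destabilises microtubules, had 453 reads and 0. Only 6 lost genes had 500 reads or more, and 113 had 200 or more. In the SC pair of run-off libraries, Foxp1 kept 287 of 2786 reads, Stmn3 kept 180 of 817 and Mapt kept 54 of 107, so these were not lost there. Hnrnpc (81 reads) and Hnrnph1 (161 reads) were at 0 after run-off there too. Cfdp1 had 1 and 104 reads in that pair, and Tsn, Sh3bgrl, Tnks2 and Sf3b2 had 41 reads or fewer without run-off.

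At the other end, the 10 genes with the highest share ratios all had more reads after run-off than without it. They had between 51 and 91 reads without run-off and between 76 and 136 after it, and their share ratios ran from 21.0 to 29.8. Mrpl11, a protein of the large mitochondrial ribosomal subunit, had 52 and 104 reads (29.8, interval 21.1 to 42.4). Ccdc66 and Crocc are proteins of cilia and of the ciliary rootlet, and had 56 and 86 reads and 89 and 136 reads. Slc12a5, the chloride exporter KCC2 of mature neurons, had 62 and 95 reads. Kif13a, a kinesin, had 68 and 103 reads, and Cct2, a subunit of the chaperonin that folds actin and tubulin, had 61 and 88. Cd24a, Alpk3, Lpcat3 and the noncoding Snhg11 complete this set. A gene with equal raw reads in both libraries has a share ratio of 14.9, and the 20 genes above that value all had 51 to 249 reads without run-off.

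To describe functions, 852 of the 3507 genes were placed in lists of known classes and 2655 were in none. The lists come from gene names and general knowledge, and a gene can be in more than 1 of them. Of 38 classes with 5 members or more, none was fully lost, 2 had no lost member (lens genes and 14-3-3 proteins), and 4 had lost at least 50% of their members (citric acid cycle enzymes, mitochondrial ribosomal proteins, proteasome subunits, and axon guidance ligands and receptors). The genes in no class had lost 41.5% of 2655 and had a median share ratio of 0.27. Because loss depended on reads, the losses of a class are read against genes of like depth: 52.7% of the 2405 genes with 50 to 199 reads were lost, and 10.3% of the 1102 genes with 200 or more. Scaling by the trimmed mean (TMM) or by the median ratio of genes read in both libraries divides every share ratio by 2.11 or 2.04, so a ratio between 1 and these values is above an equal share on the scale of library totals only, while the lost genes and the order of the classes stay as they are.

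**Figure D3:**
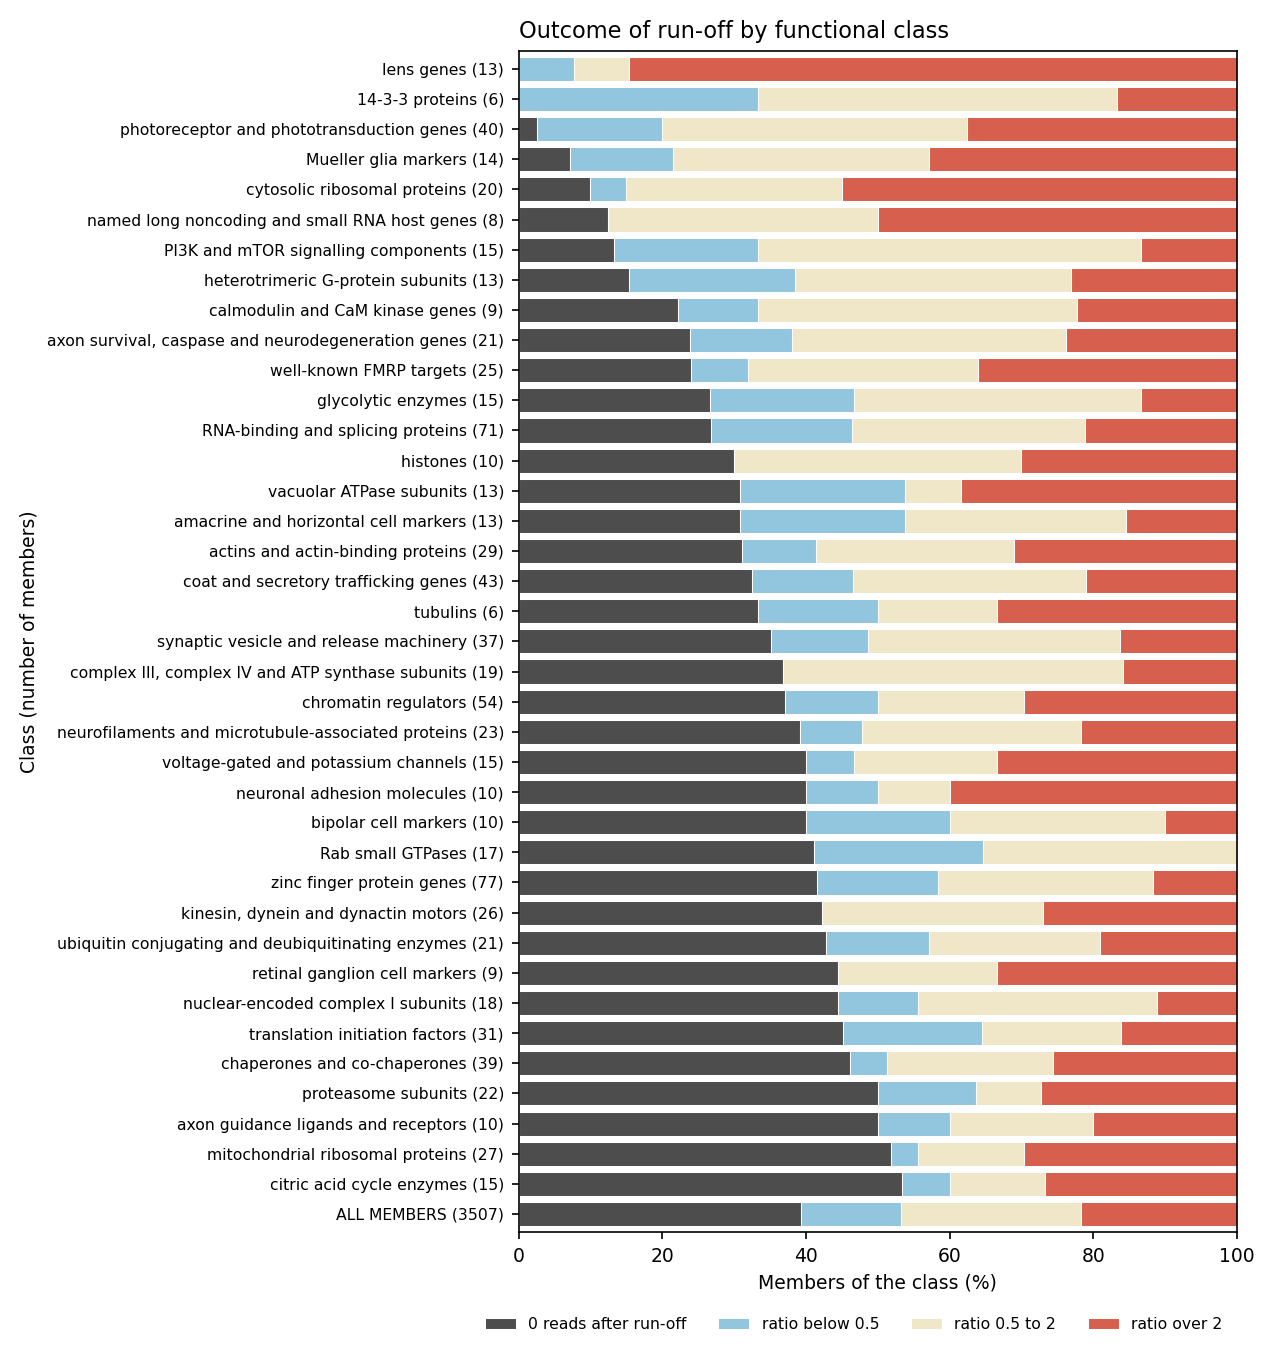
Percentage of the members of each class at 0 reads after run-off, with a share ratio below 0.5, from 0.5 to 2, or over 2 (horizontal axis), for 38 classes with 5 members or more and for all 3507 genes (bottom bar), sorted by the percentage lost, with the number of members in brackets. Lens genes have no lost member and 11 of 13 over 2, and citric acid cycle enzymes have lost 8 of 15.

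Lens genes had the highest median share ratio of the 38 classes. The crystallins are the soluble proteins that make up the transparent lens fibre, a tissue outside the retina. All 13 members kept reads, 12 had a share ratio of at least 1 and 11 had one over 2, and the median was 5.38 against 0.36 for all 3507 genes. Cryaa, which encodes alpha A crystallin (ENSMUSG00000024041, chromosome 17, 31677807 to 31681733, plus strand, mm10), had 4461 reads without run-off and 2109 after it, so 47.3% of its reads remained and its share ratio was 7.03 (6.68 to 7.41). Crybb2 had 2926 and 1059 reads (5.38, interval 5.01 to 5.78), and Cryba1 had 249 and 325 (19.4, interval 16.4 to 23.0). Crygs had 213 and 180 reads, and Lgsn, a lens protein related to glutamine synthetase, had 144 and 128. The exception was Crybg3, with 131 reads and 3 (0.341, interval 0.0694 to 1.02). Of all 27 genes on the list, 21 had a read without run-off and 14 after it, and their summed level was 2162 CPM and 14368 CPM. Over all listed genes of the files, 9159 had a read without run-off and 3736 after it. The gamma crystallins Crygb, Crygc and Crygd had 6, 12 and 17 reads without run-off and none after it.

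Genes of other tissues of the eye, of myelin, of macrophages and of blood were few. Each of those above the minimum was either lost or had a share ratio over 2. Over all genes 39.4% were lost and 21.8% had a ratio over 2. The pigment epithelium and melanocyte list had 2 members, the retinoid enzyme Lrat (141 and 34 reads) and the retinol carrier Ttr (74 and 20), with share ratios of 3.59 and 4.02. The list's summed level was 99.4 CPM without run-off and 457 CPM after it, and Pmel had 6 and 47 reads while Mlana had 49 and 0. The myelin gene Cnp had 588 and 266 reads (6.73, interval 5.80 to 7.79), and Mbp, below the minimum, had 9 and 73. The summed myelin list was at 129 CPM and 1140 CPM. Lyz2, a lysozyme of macrophages, had 84 and 44 reads, and the summed microglia and macrophage list was at 18.1 CPM and 152 CPM. In the cornea, sclera and vessel list 2 of 4 members were lost, Krt15 and Myh11, and Acta2 and Sparc had share ratios of 8.68 and 2.88. The erythroid list had 2 members, of which Sptb was lost and Slc25a37 had a share ratio of 2.19. The part that RNA of non-retinal cells has in these and the other results was not tested.

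Photoreceptor genes marked the tissue clearly and had few losses for their depth. Of 55 genes on the list, 54 had a read without run-off and 40 were above the minimum. Only Kcnv2, a potassium channel subunit with 84 reads, was lost. None of the 24 members with 500 reads or more was lost, against 1.12% of all genes in that range, none of 9 at 200 to 499 reads, against 18.9%, and 1 of 7 at 50 to 199 reads, against 52.7%. The median share ratio was 1.43, 23 of 40 held at least their share and 15 had a ratio over 2. Retention at 200 reads or more was close to that of all genes: 18 of 33 held at least their share (54.5%, against 48.6%). At 50 to 199 reads 5 of 7 did, against 29.65% of all genes. The sum over the class had a ratio of 0.626, which Gnb1 set: without it the ratio was 1.36.

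The members of the rod cascade fared unequally. Gnat1, the alpha subunit of rod transducin (ENSMUSG00000034837, chromosome 9, 107674474 to 107679712, minus strand, mm10), had 17334 reads without run-off and 962 after it, a share ratio of 0.826 (0.773 to 0.881). Among the subunits of the rod phosphodiesterase, Pde6g had 5680 and 533 reads (1.40) and Pde6b had 419 and 131 (4.65). Guca1a, which activates guanylate cyclase as calcium drops, had 1023 and 506 reads (7.36, interval 6.60 to 8.19), whereas its relative Guca1b had 3110 and 135 (0.646). Aipl1, a chaperone for the phosphodiesterase, had 660 and 286 reads (6.45).

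Proteins that end the light response differed among themselves. Rgs9, which speeds the shut-off of transducin, had 615 reads and 1 (0.0242, interval 0.000611 to 0.135), while Rgs9bp, its membrane anchor, had 308 and 42 (2.03, interval 1.43 to 2.81). Grk1, a photoreceptor kinase, had 1467 and 10 reads (0.101, interval 0.0485 to 0.187), while Sag, the rod arrestin, had 2707 and 265 (1.46). The channel subunit Cnga1 had 413 and 4 reads (0.144) and its partner Cngb1 had 801 and 88 (1.63). Among regulators of photoreceptor fate, Crx had 749 reads and 3 (0.0596), while Nrl had 527 and 99 (2.80) and Nr2e3 had 512 and 48 (1.40). Opn1sw, the short-wavelength cone opsin, had 2862 and 341 reads (1.77).

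Markers of the inner retina were thinner in the data. Among 10 bipolar cell genes 4 were lost, and the median share ratio was 0.18. Lrtm1 (148 reads), Gpr179 (114), Prkca (108) and Cabp5 (65) were at 0, Trpm1, the channel of ON bipolar cells, had a share ratio of 0.242 (0.0290 to 0.893), and Otx2, a factor that photoreceptors share, had 415 and 54 (1.94). Among 13 amacrine and horizontal cell genes 4 were lost, including the transcription factors Pax6 (133 reads) and Meis2 (132). Gad1, which makes GABA, had 188 and 4 reads (0.317, interval 0.0854 to 0.824), and Tfap2b had 241 and 108 (6.67). At 50 to 199 reads, 4 of 7 bipolar and 4 of 11 amacrine and horizontal genes were lost, beside 52.7% of all genes, so neither list stands clearly away from genes of its depth.

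Retinal ganglion cells send the axons of the optic nerve, and 9 of the 27 genes on their list were above the minimum. Rbpms, a pan-ganglion-cell RNA-binding protein, had 70 reads and 0, and its limit of 3 reads is a share ratio of 0.638. Stmn3, Ebf3 and Jam2 were lost too. Pou4f1, the ganglion cell transcription factor Brn3a, had 2988 and 248 reads (1.24, interval 1.08 to 1.41). Nefl, the light neurofilament, had 622 and 95 reads (2.27, interval 1.81 to 2.82), Sncg had 112 and 13 (1.73, interval 0.892 to 3.08) and Stmn2 had 68 and 55 (12.03). The whole list was at 1055 CPM without run-off and 1486 CPM after it, with 18 of 27 genes detected before and 8 after. Over all genes 9159 were detected before and 3736 after. The list lost 4 of 9 members (44.4%, beside 39.4% of all genes). At 50 to 199 reads it lost 3 of 5 (60%, beside 52.7%), so its losses stay near those of all genes. Pou4f1 also had 2255 reads in the SC library without run-off, and Thy1, another ganglion cell marker, had 16 reads in the retina without run-off and 0 after it.

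Müller glia, which span the retina and support its neurons, lost 1 of 14 members, Gpr37 (155 reads), and the median was 0.88. Of these 14 members 10 had 200 reads or more, where none was lost, against 10.3% of all genes. Of those 10, 4 held at least their share (40%, against 48.6% of all genes), so the list stays near genes of its depth. Apoe, a lipid carrier, had 399 and 185 reads (6.90, interval 5.76 to 8.23), Dkk3 had 384 and 97 (3.76) and Car2 had 1075 and 156 (2.16). Glul, glutamine synthetase, had 428 and 17 reads (0.591, interval 0.341 to 0.957), and Rlbp1, which carries retinaldehyde, had 668 and 26 (0.579, interval 0.375 to 0.856). Vim, the intermediate filament of these cells, had 262 and 56 reads (3.18). The glial list thus held genes on both sides of an equal share.

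**Figure D4:**
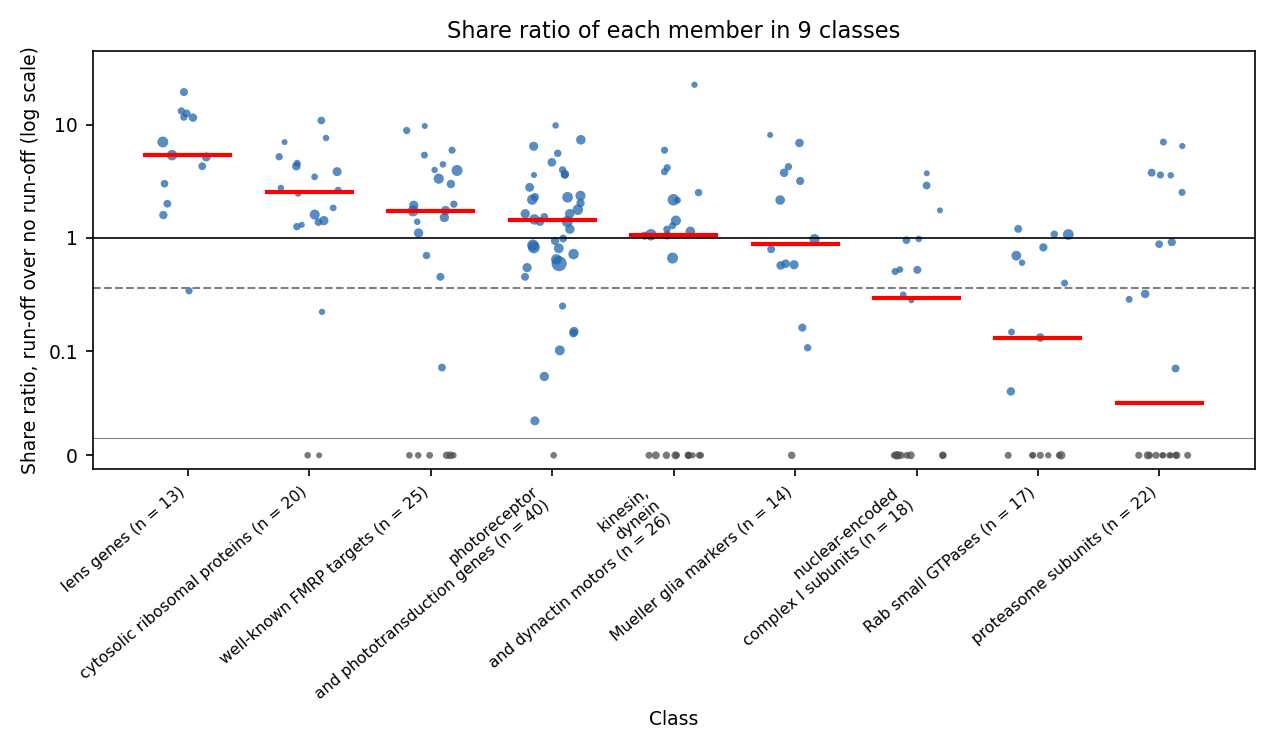
Share ratio of each member (points, log scale, genes at 0 reads after run-off below the grey line, point area larger for more reads without run-off) in 9 classes, with the class median as a red bar, an equal share as the black line and the median of all 3507 genes, 0.36, as the dashed line. The medians run from 5.38 for lens genes to 0.0351 for proteasome subunits, and every class spans more than a factor of 10.

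Cytosolic ribosomal proteins mostly held their share. Of 20 members, 17 had a share ratio of at least 1 (85%, against 35.6% of all genes) and 11 had one over 2 (55%, against 21.8%). The median was 2.56, against 0.36. At 50 to 199 reads 13 of 16 held at least their share (81.25%, against 29.65% of all genes). Most were shallow, and at 50 to 199 reads 2 of 16 were lost, Rpl27a (81 reads) and Rpl6 (52), against 52.7% of all genes in that range. Rps3 had 1658 and 179 reads (1.61, interval 1.37 to 1.88), Rpl4 had 611 and 158 (3.85) and Rpl13a had 374 and 108 (4.30). Rpl22, the gene that carries the tag, had 113 and 20 reads (2.63, interval 1.55 to 4.26). Ribosomal protein genes have many processed pseudogenes, so single values in this class are uncertain.

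Among 31 initiation factors 14 were lost and the median was 0.12. At 50 to 199 reads 12 of 23 were lost (52.2%, beside 52.7% of all genes), and 2 of 8 were lost above that. Eif6 (300 reads) and Eif5a2 (223) were at 0, Eif1a had 3690 and 325 reads (1.31), Eif3f had 70 and 79 (16.8) and Eif4g3 had 151 and 109 (10.7). Of 4 elongation and release factors 1 was lost and 2 held at least their share, with Eef1a1 at 864 and 43 reads (0.740, interval 0.532 to 1.006) and Eef1b2 at 196 and 61 (4.63). Mitochondrial ribosomal proteins, none of which had 200 reads, lost 14 of 27, or 51.9%, which is close to the 52.7% of all genes in that range.

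The noncoding RNAs, which are not translated, varied widely among themselves. Of 8 members of the list, 1 was lost, Six3os1 (103 reads), and the median share ratio was 2.87, which became 0.996 at a minimum of either 20 or 100 reads. Malat1, a nuclear RNA (chromosome 19, 5795690 to 5802672, minus strand, mm10), had 456 and 154 reads (5.02, interval 4.16 to 6.04) and Meg3 had 91 and 70 (11.4, interval 8.26 to 15.8). Tug1 had 2121 and 154 reads (1.08, interval 0.911 to 1.27), so not all of them gained share. Malat1 kept 33.8% of its reads after run-off and Vax2os 4.55%, while Snhg11 had 151.8% as many. The precursor Rn45s kept 31.3%, but its reads can include RNA of the ribosomes themselves. The list therefore gives no single value for RNA that is not translated.

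Targets of FMRP, the repressor that stalls ribosomes on long neuronal mRNAs, were described from a short list of well-known examples. Of 25 members 6 were lost, 16 held at least their share (64%, beside 35.6% of all genes) and the median was 1.73. At 50 to 199 reads 5 of 14 were lost, against 52.7% of all genes, and with 200 reads or more 1 of 11 was lost, against 10.3%. At least their share was held by 8 of 14 (57.1%, against 29.65%) and by 8 of 11 (72.7%, against 48.6%). The deeper members were not uniform. At 200 to 499 reads 1 of 4 held its share, with a median of 0.262 against 0.80 for all genes. All 7 with 500 reads or more did, against 52.5% of all genes in that range. Among genes of that depth with the longest coding sequences 65.04% did, and the part that length has in this list was not tested. Birc6, a giant inhibitor of apoptosis (ENSMUSG00000024073, chromosome 17, 74528295 to 74703356, plus strand, mm10), had 4947 and 1311 reads (3.94, interval 3.71 to 4.19). Sptbn1, a spectrin, had 1990 and 446 reads (3.33), Kmt2d, a histone methyltransferase, had 4376 and 509 (1.73) and Macf1, which links actin to microtubules, had 134 and 80 (8.88). Kif5c, Myo5a, Pclo, Map1a, App and Spen were lost, with 205 reads or fewer each. Fmr1, which encodes FMRP, had 755 and 24 reads (0.473, interval 0.301 to 0.709).

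Loss was about as frequent in short as in long coding sequences. For the 3360 genes with a coding length in the GENCODE annotation, 316 of 844 were lost in the shortest of 4 equal groups (up to 612 bases) and 328 of 838 in the longest (1794 bases or more). At 50 to 99 reads the counts were 192 of 338 and 218 of 372. The share of genes with a ratio over 2 was 23.0% in the shortest group, 19.1% and 20.2% in the middle groups and 25.1% in the longest. Retention differed among the best measured genes: with 500 reads or more, 80 genes of the longest group held at least their share (65.04%, median ratio 1.30), against 50.4%, 46.2% and 46.6% in the other groups, from the shortest up.

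Classes of energy metabolism held both lost members and high ratios. Among 18 nuclear-encoded subunits of complex I, which takes electrons from NADH, 8 were lost and 3 held at least their share. At 50 to 199 reads 6 of 14 were lost (42.9%, against 52.7% of all genes) and above that 2 of 4. Ndufb9 had 216 reads and 0, with a limit of 3 reads at a share ratio of 0.207, while Ndufb8 had 205 and 40 (2.90). The sum over the class had a ratio of 0.557. Of 19 subunits of complex III, complex IV and ATP synthase 7 were lost (36.8%, against 39.4% of all genes), with Uqcrfs1 (221 reads) and Uqcrc1 (209) at 0 and Cox5a at 152 and 76 reads (7.44). Citric acid cycle enzymes lost 8 of 15, all of them among the 11 with fewer than 200 reads (72.7%, against 52.7%), and the 4 deeper members had a median ratio of 2.197.

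Glycolytic enzymes lost 4 of 15, 2 of 6 with fewer than 200 reads and 2 of 9 above that, including the phosphofructokinases Pfkl (343 reads) and Pfkp (281). Hk2, the hexokinase of photoreceptors, had 11785 and 719 reads (0.908, interval 0.841 to 0.979), and Aldoc, an aldolase, had 569 and 99 (2.59). Gapdh is listed at 0 reads in both retinal run-off libraries, as it is at 0 FPKM in the adult retina libraries, so its absence says nothing on run-off.

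Proteasome subunits lost 11 of 22, with a median of 0.0351. Psmd7 (256 reads) and Psmd6 (159) were at 0, Psmb4 had 372 and 8 reads (0.320, interval 0.137 to 0.637) and Psma6 had 229 and 58 (3.77). At 50 to 199 reads 10 of 17 were lost, or 58.8%. Ubiquitin enzymes lost 9 of 21, 8 of them among the 12 with fewer than 200 reads, with Ube2l3 at 397 reads and 0, and Usp22 at 8468 and 432 (0.759). Chaperones lost 18 of 39, with 15 of 28 lost at 50 to 199 reads (53.6%) and 3 of 11 above that, but also held Cct3 at 163 and 139 reads (12.7), and the most abundant of them, Ptges3, had 42185 and 2188 (0.772).

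Genes that act in the nucleus split by depth. Among 77 zinc finger genes 32 were lost, but 30 of these were among the 44 with fewer than 200 reads (68.2%, against 52.7% of all genes), and 2 of 33 were lost above that. Zscan26 had 28943 and 2025 reads (1.04). Among 54 chromatin regulators 20 were lost, all of them among the 38 with fewer than 200 reads (52.6%, beside 52.7% of all genes). None of the 16 with 200 reads or more was lost, against 10.3% of all genes. The median of these 16 was 1.80, against 0.96, with Kdm5b at 11591 and 927 reads (1.19, interval 1.11 to 1.27). RNA-binding and splicing proteins lost 19 of 71, with 15 of 37 at 50 to 199 reads (40.5%) and 4 of 34 above that (11.8%), among them the deeply read Hnrnpc and Hnrnph1, while Hnrnpu had 16718 and 1243 reads (1.11, interval 1.04 to 1.17). Histones lost 3 of 10, all 3 among the 6 with fewer than 200 reads.

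The vesicle and release machinery lost 13 of 37 with a median of 0.56, and at 50 to 199 reads 11 of 20 were lost (55.0%). Snap25, a SNARE of vesicle fusion, had 42544 and 3062 reads (1.07, interval 1.03 to 1.11). The vesicle proteins Vamp1 (227 reads) and Syp (214) were at 0, and Nsf, which takes SNARE complexes apart, had 221 and 101 (6.80, interval 5.32 to 8.64). Subunits of the vacuolar proton pump lost 4 of 13, with 3 of 7 at 50 to 199 reads. Voltage-gated and potassium channels lost 6 of 15, 5 of them among the 10 with fewer than 200 reads, with Scn2b at 5127 and 282 reads (0.818) and Cacnb4 at 358 and 99 (4.11). Adhesion molecules lost 4 of 10, all among the 6 with fewer than 200 reads, with Ncam1 at 509 and 146 reads (4.27), and axon guidance genes lost 5 of 10, 4 of them among the 7 with fewer than 200 reads, with Unc5d at 343 and 0 and Efna5 at 729 and 21 (0.429, interval 0.264 to 0.660).

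Transport genes were split between members. Kinesin, dynein and dynactin motors lost 11 of 26, 9 of them among the 17 with fewer than 200 reads (52.9%, against 52.7% of all genes), yet 14 held at least their share and only Kif2a (4687 and 209 reads, 0.663) lay in between. Kif1b had 9318 and 1360 reads (2.17, interval 2.05 to 2.30) and Kif1a had 120 and 48 (5.95), while Kif5b (229 reads) and Kif5c (205) were at 0. Rab GTPases, which direct vesicles, lost 7 of 17, 6 of them among the 10 with fewer than 200 reads, and had no member with a ratio over 2, beside 21.8% of all genes. Rab27a had 3917 and 282 reads (1.07), and Rab18 had 377 and 0. Coat and secretory genes lost 14 of 43, with 12 of 28 at 50 to 199 reads (42.9%), and had Ap2a2 at 6276 and 822 reads (1.95) and the coatomer genes Copb2 (330 reads) and Copa (234) at 0.

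Cytoskeletal genes were likewise mixed. Tubulins lost 2 of 6, Tubb2a and Tubg1, both below 100 reads, and Tubb5 had 30853 and 2124 reads (1.02, interval 0.980 to 1.07). Actins and their binding proteins lost 9 of 29, 8 of them among the 19 with fewer than 200 reads (42.1%). Neurofilaments and microtubule-associated proteins lost 9 of 23, with 6 of 12 at 50 to 199 reads and 3 of 11 above that, and had Dpysl2 at 71114 and 2757 reads (0.577).

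Losses in the signalling classes are given with the reads behind them. The 14-3-3 proteins, adaptors that bind phosphorylated proteins, lost none of 6, 3 of them with fewer than 200 reads, although Ywhag had 672 and 5 reads (0.111, interval 0.0358 to 0.260), and Ywhae had 30475 and 2019 (0.986). PI3K and mTOR components lost 2 of 15, both among the 9 with fewer than 200 reads, with Rragd at 4102 and 244 reads (0.885) and Rptor, the mTORC1 scaffold, at 54 and 47 (13.0). G-protein subunits lost 2 of 13, with 1 of 9 lost at 200 reads or more (11.1%, near the 10.3% of all genes). Calmodulin and CaM kinase genes lost 2 of 9, both among the 5 with fewer than 200 reads. Of 21 genes of axon survival and neurodegeneration 5 were lost, 4 of 12 with fewer than 200 reads and 1 of 9 above that, among them Mapt and the prion protein gene Prnp (154 reads), and Optn had 120 and 80 reads (9.92).

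Genes that were also found without tagged ribosomes were lost less often. Of genes with 50 to 99 reads, 68.4% of the 817 at 0 FPKM in both Cre-negative adult SC libraries were lost, 53.6% of the 537 above 0 in 1 of them and 28.9% of the 90 above 0 in both. At 100 to 199 reads the values were 53.8%, 34.5% and 20.4%, and at 200 to 499 reads 33.8%, 18.3% and 5.52%. These libraries come from another tissue and from precipitates with no tag, so general abundance and carry-over cannot be told apart here.

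**Figure D5:**
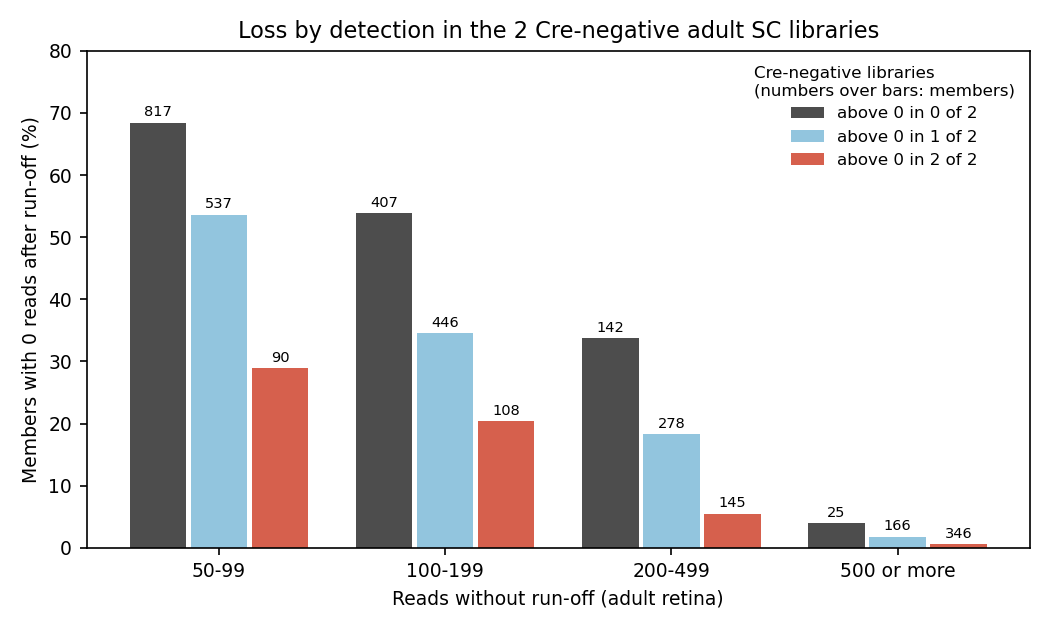
Percentage of genes at 0 reads after retinal run-off (vertical axis) by reads without run-off (horizontal axis) and by whether the gene was above 0 FPKM in 0, 1 or 2 of the Cre-negative adult SC libraries, with the number of genes over each bar. Within each bin the bars descend, from 68.4% to 28.9% in the first.

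The matched pair of run-off libraries from adult SC, where the tagged ribosomes sit in retinal axons, held 3262914 and 349395 reads (10.7%), and 47.5% of its 3019 genes with 50 reads or more were lost. Cytosolic ribosomal proteins lost 5 of 14 there with a median share ratio of 0.0513, and FMRP targets lost 8 of 28 with a median of 0.249. Low medians were general in SC. Of the classes with 5 members or more there, histones had the highest, 0.778, and zinc finger genes had 0. A median below 1 therefore does not set ribosomal proteins or FMRP targets apart in SC. The difference between tissues was not tested.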

How the data were processed

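The authors mapped reads to mm10 with TopHat2 2.0.12, using an option meant to limit pseudogene hits, and counted them per gene with HTSeq 0.6.1p1. The deposited values used here are raw read counts for the 4 run-off libraries, and for adult retina and Cre-negative SC the FPKM that the authors deposited, made with Cufflinks 2.2.1. Counting settings such as strand are not given in the sources used here, nor is whether the library without run-off was incubated. The authors noted primer-dimer reads in several samples.

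Share ratios were computed from CPM over all genes, with exact Clopper-Pearson 95% intervals of the conditional binomial, and the script was tested on simulated data (Python 3.11.15, scipy 1.17.1). A count of 0 was read as up to 3 reads. Group totals ranged from 315009 to 4686284 reads. TMM factors came from edgeR 4.0.16. No test was run, as each group is 1 library. Coordinates and coding lengths are from GENCODE M21 (GRCm38), matched by symbol for 95.8% of genes.

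Genes named are the 10 with most reads in either library, the 10 lost genes with most reads, the 10 highest share ratios whose interval lies above 1, the most read, lowest and highest members of each class, and a set of control genes, while other class and marker genes were chosen after their values were seen. A few genes that the rule names are not reported here. Genes and lists were chosen with earlier results of these data known. Alternatives were other read minimums, scalings and cuts.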

Additional observations from a re-analysis of the deposited data

Results flagged for a closer look

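Among classes with 5 members or more in both tissues, 3 lay on opposite sides of an equal share in the retinal and SC run-off pairs, both by median and by summed reads, and the difference was not tested. All classes of that size had an SC median below 1, the highest being 0.778 for histones. Any class with a retinal median above 1 thus met the condition on medians, which adds nothing to the summed reads. For cytosolic ribosomal proteins the summed reads had a share ratio of 2.70 in retina and 0.917 in SC. For retinal ganglion cell markers the values were 1.41 and 0.908, and for kinesin, dynein and dynactin motors 1.44 and 0.865.

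Outside the genes studied, 181 genes with no read in the library without run-off had over 3 reads after run-off, the highest being Pqlc1 with 98. A further set of 68 genes, 12 of them at 0 without run-off, had fewer than 50 reads without run-off and at least 50 after it, among them Zcchc7 (7 and 96 reads), Tsc1 (16 and 89) and Ctsf (18 and 87), all chosen after their values were seen.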

How the results depend on the processing

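No paired analysis was possible because each run-off group is 1 library and carries no replicate number, so no replicate could be left out either. The number of lost genes was 2780 of 5496 at a minimum of 20 reads, 508 of 2063 at 100, 113 of 1102 at 200 and 6 of 537 at 500. Genes with fewer reads after run-off numbered 5401, 2061, 1101 and 537 at these minimums. Genes holding their share numbered 1678 at 20 reads, 870 at 100, 536 at 200 and 282 at 500. The median share ratio was 0 at 20 reads, 0.75 at 100, 0.96 at 200 and 1.04 at 500. The scaling moved the ratios too. Taking TMM (library factor 14.2%) or the median ratio of genes read in both libraries (13.7%) in place of the totals (6.72%) shifted every log2 ratio by 1.08 and 1.03, left 718 and 746 genes with their share, and gave medians of 0.17 and 0.18. On raw reads 20 genes did, with a median of 0.0244. Without the 13 genes that lead either library the count was 1079 and the median 0.29. A ratio of at least 2 in place of 1 left 763 genes. A rescaling moves a class and the median of all genes alike, but under TMM or the median ratio the class medians of photoreceptor genes (0.675 and 0.701), FMRP targets (0.819 and 0.850), motors, retinal ganglion cell (RGC) markers and calmodulin genes lie below 1, and those of lens genes, cytosolic ribosomal proteins and noncoding RNAs stay above it. The RGC median was 0.196 at 20 reads. Of 27 classes above the median of all genes, 20 stayed above it at 100 reads and 14 at 200. Of 11 below it, 7 stayed below at each. Chosen after seeing the data, leaving out genes found in both Cre-negative libraries gave 1323 lost of 2818 and a median of 0.12. Leaving out the noncoding RNAs, asking for a ratio of at least 0.5, and counting up to 3 reads as lost moved no count by over 1.5 times. Beyond the smaller or larger sets of genes, the cause of these shifts was not tested. The depth after run-off limits any statement on genes under about 200 reads.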
